A study of Mus musculus with 4 samples.

Results

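The cytotoxic CD4 T cells (CTL) of the small intestine were the cells that the deposited table names CTL in its identity row, which holds 1 of 8 cluster names for every cell. They numbered 337 of 5080 cells, and 321 of the 337 (95.3%, exact 95% interval 92.4 to 97.3) came from TGFbR-KO mice. YFP+CD4+ T cells of the small intestine, on a C57BL/6 background, had been sorted and their transcript 3′ ends sequenced in droplets, cell by cell, in 4 samples. All mice carried Il17a-cre and the Rosa26-stop-yfp reporter, so that a cell that had once switched on Il17a, and its progeny, stayed YFP+. TGFbR-KO mice also carried floxed alleles of Tgfbr2, TGFbR-CA mice carried a constitutively active Tgfbr1 behind a floxed stop cassette, and TGFbR-WT littermates carried neither. TGFbR-KO (1 sample) and TGFbR-CA (1 sample) were each run beside a TGFbR-WT sample (2 in all), cells came from pools of mice, and the mice of all 3 genotypes were 7 to 8 months old. Cre driven by Il17a also acts in other cells that use this gene, and the study removed gd T cells and epithelial cells before depositing the table.

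Cytotoxic CD4 T cells are helper T cells that carry granzymes in secretory granules and can kill cells that show their peptide on MHC class II molecules. In the gut, CD4 T cells that enter the epithelium are known to acquire such a program together with CD103 (Itgae) and Runx3, while circulating effector cells of this kind carry Cx3cr1, Klrg1 and S1pr5. Killing by granules needs perforin to open the target membrane and granzymes to cleave proteins inside it, and chemokines such as CCL5 are stored in and released from the same cells.

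CTL made up 321 of 2975 TGFbR-KO cells (10.8%, exact 95% interval 9.70 to 11.96). They were 13 of 1007 TGFbR-WT cells (1.29%, 0.689 to 2.20) and 3 of 1098 TGFbR-CA cells (0.273%, 0.0564 to 0.796). The TGFbR-WT cells fall into a larger set of 709 cells with 10 CTL (1.41%) and a smaller set of 298 cells with 3 CTL (1.01%), which could not be tied to one or the other WT sample. The intervals cover counting error only, TGFbR-KO and TGFbR-CA were 1 sample each, TGFbR-WT could only be treated as 1, and the difference between conditions was not tested. Condition and sequencing batch cannot be told apart for TGFbR-KO against TGFbR-CA.

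Values were corrected unique molecular identifiers (UMIs), which the authors' normalization had scaled so that cells had nearly equal totals. The median was 3643 corrected UMIs and 1446 genes in TGFbR-KO CTL cells against 3833 and 1494 in the other 2654 TGFbR-KO cells. The median mitochondrial share was 0.864% in CTL and 1.04% in the others, and no CTL cell had a barcode that occurred in more than 1 set of cells (32 cells of the whole table did). A level below is the number of corrected UMIs of a gene in a group of cells for every 10000 that the group held. Ratios have 0.1 per 10000 added to both levels, which understates the change of low genes. TGFbR-KO is a single sample and the clusters were made from the same values, so all ratios describe these cells and carry no test.

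The label goes with 5 marker genes, which are described here. The study described this cluster by cytotoxic genes that include Gzma, Gzmb, Nkg7 and Cd160, and also Ifng and Cd107a (Lamp1). The high levels of Gzma, Gzmb, Nkg7 and Cd160 in CTL come from the same values and are no independent check of the label. The levels of Ifng and Lamp1 were not higher in CTL than in the other TGFbR-KO cells. Ifng had 3.44 per 10000 in CTL against 4.35 in the others, although it was detected in 47.4% of CTL cells against 23.6%. Ccl5, a chemokine that draws T cells (chr11:83525778-83530518 in GRCm38, coordinates here and below from GENCODE vM21), had a level of 124 per 10000 in CTL, with a median of 24 and a maximum of 279 UMIs per cell. Its level was 44.4 in the tumorigenic cells and between 0.617 and 3.94 in the other 6 identities. Nkg7, a granule membrane protein that helps cytotoxic cells to release their granules (chr7:43437073-43438249), had 15.2 in CTL, 8.61 in tumorigenic cells and 0.0882 in tissue-resident follicular helper (TR-TFH) cells. Both genes were highest in CTL and next in tumorigenic cells, and Nkg7 reached 4.09 in cycling cells.

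Gzma, a granzyme that cleaves after basic residues (chr13:113093825-113100981), had 14.1 per 10000 in CTL and at most 2.45 elsewhere, in cycling cells. Gzmb, the granzyme that cleaves caspases (chr14:56258838-56262260), had 5.82 in CTL, at most 2.04 elsewhere and 0.0156 in TR-TFH cells. Cd160, a receptor of the immunoglobulin family found on NK cells and intraepithelial lymphocytes (chr3:96798763-96829351), set CTL apart least: 2.63 in CTL stood close to 2.20 in cycling and 2.18 in germinal center TFH (GC-TFH) cells. All 5 markers had their highest level in CTL.

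**Figure D1:**
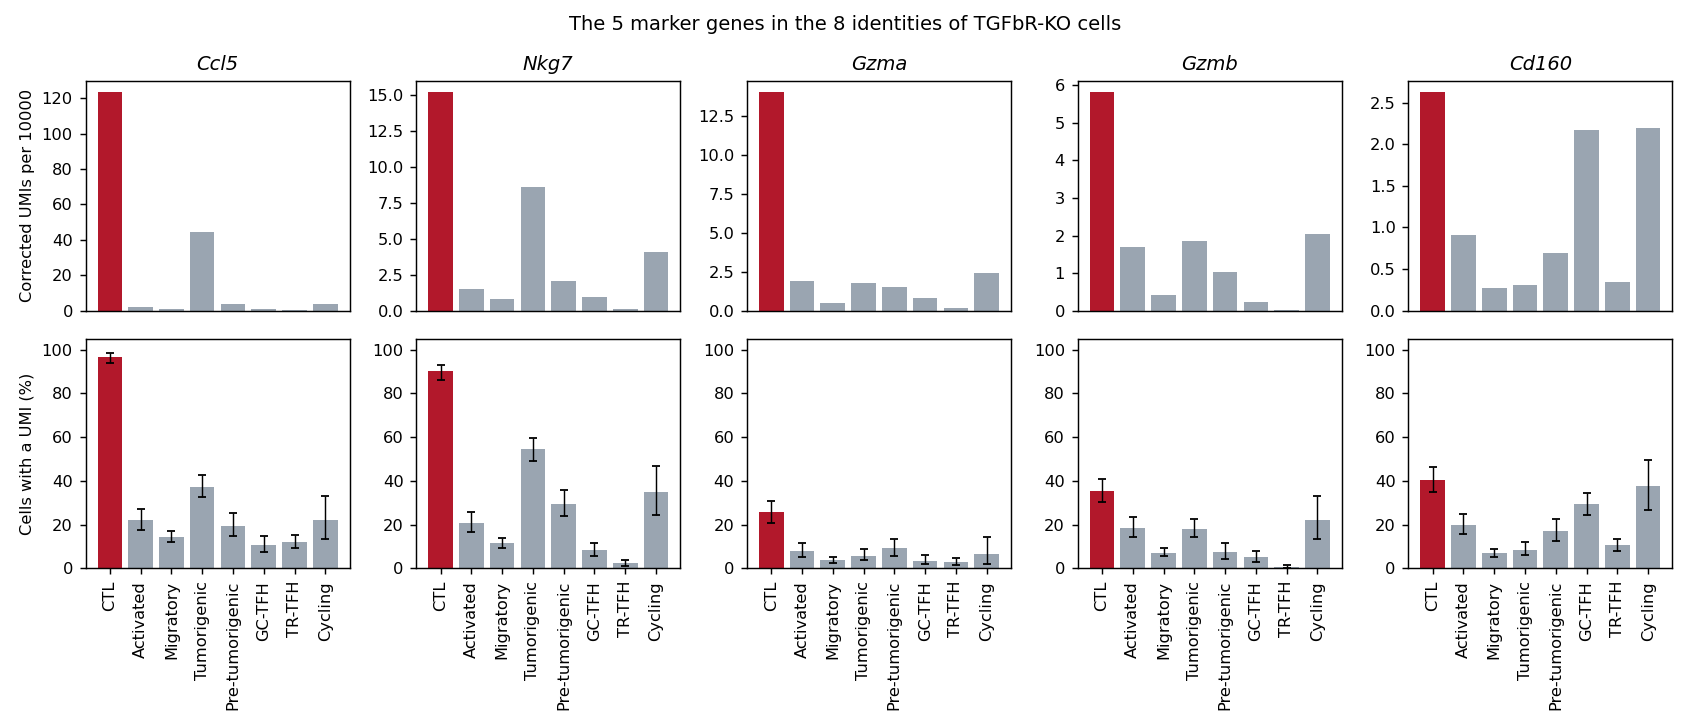
The upper row plots the level of each marker gene (corrected UMIs per 10000) in the 8 identities of TGFbR-KO cells, and the lower row the share of cells with at least 1 UMI (%) with exact 95% intervals. CTL (red) is highest for all 5 genes, by far for Ccl5 (124 against 44.4 in tumorigenic cells) and by little for Cd160 (2.63 against 2.20 in cycling cells).

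Detection within CTL was uneven. Ccl5 was found in 310 of the 321 TGFbR-KO CTL cells (96.6%, 94.0 to 98.3) and Nkg7 in 289 (90.03%, 86.2 to 93.1). Cd160 was found in 130 cells (40.5%, 35.1 to 46.1), Gzmb in 114 (35.5%, 30.3 to 41.0) and Gzma in only 82 (25.5%, 20.9 to 30.7). The same shares in TR-TFH cells, which served as cells that should lack these genes and had a median of 3575 corrected UMIs, were 12.1% for Ccl5, 2.31% for Nkg7, 10.6% for Cd160, 0.578% for Gzmb and 2.89% for Gzma. A single CTL cell held up to 174 UMIs of Gzma and 53 of Gzmb, so that a small share of cells carried much of either gene. At least 4 of the 5 markers were seen in 90 CTL cells (28.0%, 23.2 to 33.3), exactly 2 in 115 cells and none in 3 cells. Among tumorigenic cells 14 of 361 had at least 4 markers (3.88%, 2.14 to 6.42), and among TR-TFH cells 0 of 519, which allows a share of up to 0.578% by 3 counts of the total and 0.708% by the exact interval.

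To describe CTL against all other TGFbR-KO cells, the ratio was taken for the 5953 genes with at least 200 corrected UMIs over all TGFbR-KO cells. CTL UMIs count toward this minimum, and some genes passed it only with them. Of the 5953 genes, 43 had a ratio of at least 2 (0.722%) and 161 a ratio of 0.5 or less (2.7%). The median log2 ratio over all 5953 was -0.0031. CTL had the highest level of the 8 identities for 40 of the 43. Among the other 7 identities, the highest level of these 43 genes was in activated cells for 16, in tumorigenic cells for 12 and in cycling cells for 10. The tumorigenic level lay above that of CTL for Klrg1 and Chsy1, and the GC-TFH level for Jchain. Of the 161 lower genes, 80 had their lowest level in CTL and 69 their highest in tumorigenic or pre-tumorigenic cells.

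The 15 largest ratios began with Ccl5 (16.7), Gzma (13.2), Nkg7 (7.10) and Gzmb (6.83). Slamf7, a self-binding receptor of cytotoxic and plasma cells, had 1.62 per 10000 in CTL against 0.164 in the other cells, a ratio of 6.53, and was detected in 123 CTL cells. Gpr18, a receptor for lipids known from intraepithelial lymphocytes, had 1.89 against 0.227 (6.10). Cd7, an immunoglobulin-family receptor of T and NK cells, had 4.58 against 0.863 (4.86) and was detected in 201 CTL cells. Ctsw, a cathepsin of cytotoxic cells, and Jaml, an adhesion receptor of epithelial T cells, each had a ratio of 4.81.

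Further down stood Cd38 (3.65), an enzyme that consumes NAD, Cd160 (3.45), Hopx (2.81), a homeodomain protein of effector cells, and Abi3 (2.81), an actin regulator. Hopx lay close to its level in tumorigenic cells, at 4.43 against 4.26 per 10000. Igha (4.50) and Jchain (3.92), an antibody heavy chain and the chain that joins antibodies, belong to plasma cells, and 137 of the 140 Igha UMIs and 218 of the 224 Jchain UMIs in CTL lay in 1 cell. That cell had 4420 corrected UMIs, 7 of Cd3e, 2 of Trac, 7 of Nkg7 and 4 of Mzb1. Without it the ratios were 0.447 for Igha and 0.301 for Jchain, below 1. These are the only 2 of the 43 genes with over 50% of their CTL UMIs in 1 cell.

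Far fewer genes set CTL apart from every other identity. A ratio of at least 2 to each of the 7 was reached by 9 genes (0.151% of those compared), and the smallest of the 7 ratios was 5.56 for Gzma, 2.84 for Cd7, 2.78 for Ccl5, 2.77 for Gpr18, 2.76 for Gzmb, 2.70 for Slamf7, 2.30 for Jaml, 2.02 for Cd38 and 2.01 for Cxcr3. Cxcr3, the receptor for interferon-induced chemokines, had 2.98 per 10000 in CTL, and between 0.768 and 1.44 in the other identities. Snx10, a sorting nexin of endosomes, came next at 1.86. Nkg7 was not among the 9, since its level in tumorigenic cells left a ratio of 1.76, and Cd160 had 1.19. Of the 9, Slamf7, Jaml and Cd38 passed the UMI minimum only with their CTL UMIs (168, 187 and 177 in the other cells).

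The genes furthest below the other TGFbR-KO cells included the cytokines of the TH17 program, among them Il17a, whose promoter drives the Cre of the tracing. Il22 had 0.248 per 10000 in CTL against 7.52 in the others, Il17a 0.0331 against 2.12 and Il17f 0.00827 against 1.22. For Il17a that was 4 UMIs in 4 of 321 cells, and for Il17f a single UMI. Pre-tumorigenic cells had the highest level of all 3 cytokines, 38.6 for Il22. TR-TFH cells were low too, at 0.187 for Il22, below CTL, 0.0519 for Il17a and 0.0207 for Il17f.

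The other genes among the 15 lowest were Nr4a1, an early gene of T cell receptor signaling (0.0909 against 2.32), Gpr183, the oxysterol receptor that guides cells in follicles (0.364 against 4.14), and Ctla4, an inhibitory receptor (0.347 against 3.80). Hspa1a, a heat shock protein (1.18 against 9.48), Tnfaip3, a brake on NF-kB (0.554 against 3.91), and Odc1, which starts polyamine synthesis (0.198 against 1.64), followed, with Areg (0.00827 against 0.586), a growth factor for epithelium, and Ramp3 (0.116 against 1.19), a receptor partner. Chemokine receptors were among them too, Cxcr4 with 1 UMI in all CTL (0.00827 against 0.471) and Ccr6 with 0.265 against 1.82. Ighm (0.00827 against 0.632) and the histone Hist1h1b (0.0248 against 0.560) were highest in GC-TFH (2.62) and in cycling cells (15.9). CTL did not have the lowest level of Nr4a1, Hspa1a or Tnfaip3. TR-TFH cells were lower, at 0.0570, 0.908 and 0.182 in turn. The highest levels were in tumorigenic cells for Nr4a1 (10.7) and Tnfaip3 (17.7) and in pre-tumorigenic cells for Hspa1a (74.9).

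**Figure D2:**
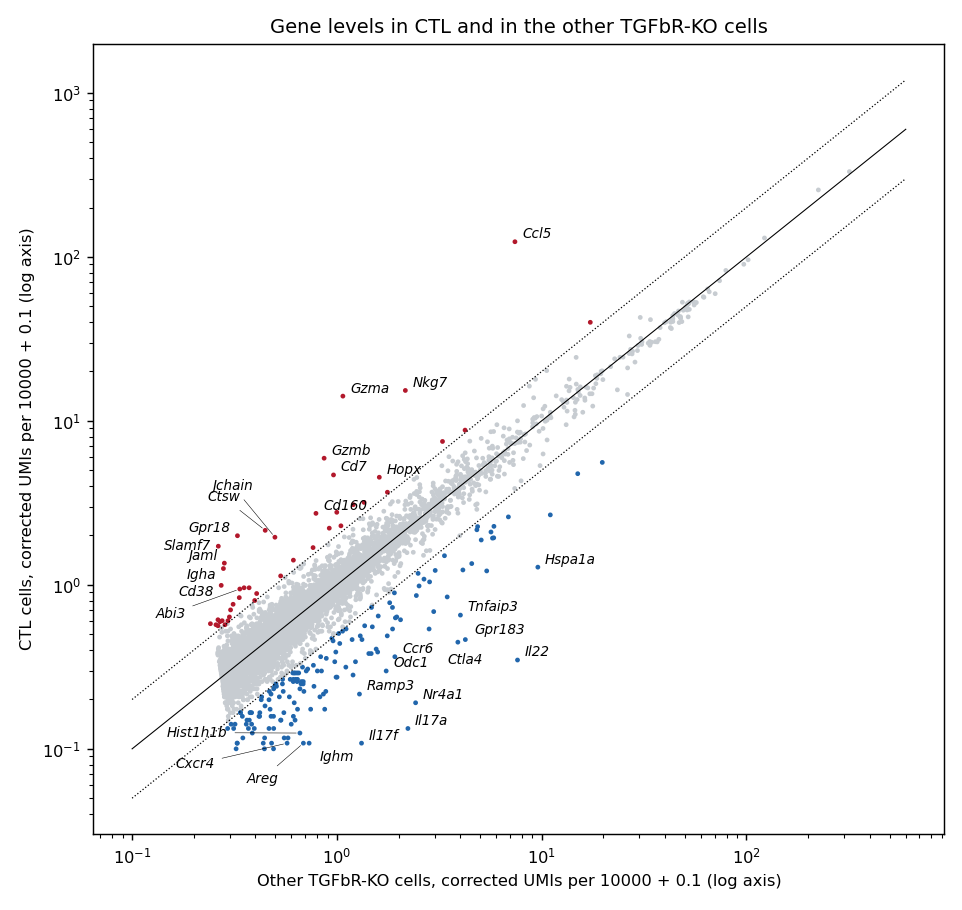
Each point is 1 of 5953 genes, with its level plus 0.1 (corrected UMIs per 10000, log axes) in the other TGFbR-KO cells on the horizontal and in CTL on the vertical axis. The solid line marks equal levels and the dotted lines a ratio of 2 either way, and the 43 red genes above and the 161 blue genes below include the named 15 at each end, from Ccl5 (124 against 7.30) to Il22 (0.248 against 7.52).

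Genes of the cytotoxic machinery differed unevenly. Of 22 listed granule genes and death ligands, 15 reached 200 UMIs and 4 of these had a ratio of at least 2 (Gzma, Gzmb, Nkg7 and Ctsw), none 0.5 or less, with a median log2 ratio of 0.38. Over all genes compared 0.722% were higher and 2.7% lower by these limits, the background for each list below, and with a minimum of 1000 UMIs the granule median was 1.86. Prf1, which encodes perforin, stayed under the minimum for comparison: 41 UMIs in 35 CTL cells, a level of 0.339 against 0.0204 in the other cells. Gzmk, a granzyme of early effector cells, likewise had 40 UMIs in 26 CTL cells (0.331 against 0.0127). Cst7, which inhibits the proteases that activate granzymes, had 1.65 against 0.806, and Fasl, the ligand of the death receptor Fas, 0.380 against 0.230. Genes for moving and fusing granules lay on both sides of 1: Rab27a had a ratio of 0.969, Unc13d 1.31, Stx11 0.623, and Lamp1 (CD107a), a granule membrane protein used as a marker of degranulation, 0.764. Srgn, the proteoglycan that packs granules, had 15.4 in CTL against 23.3.

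NK cell receptors had a median of 1.22 on the log2 scale over the 9 of 24 listed genes that passed the minimum. Slamf7 and Klrg1 passed it only with their CTL UMIs (168 and 167 in the other cells), and with no minimum the median was 0.37. The 5 genes at a ratio of at least 2 were Slamf7, Cd7, Cd160, Cd226 (3.08 against 1.26), a receptor for nectin-like ligands, and Klrg1 (0.512 against 0.163), an inhibitory receptor of effector cells that was higher still in tumorigenic cells (0.878). Hcst, the adaptor of NKG2D, had a ratio of 1.51. The NK lectins themselves were scarce: Klrk1 had 2 UMIs, Klrc1 had 1, Klrc2 and the adaptors Tyrobp and Fcer1g had 0, while Klrd1 (CD94) had 54 UMIs in 23 CTL cells.

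CTL differed from the tumorigenic cells in transcripts for secreted proteins. Ifng, the TH1 cytokine, was detected in 152 CTL cells (47.4%, 41.8 to 53.0) at a level of 3.44, against 21.5 in tumorigenic, 7.66 in pre-tumorigenic and 4.06 in cycling cells. Ifng was detected in 60.1% of tumorigenic and 1.35% of TR-TFH cells. Csf1, the macrophage growth factor, had 0.860 against 0.273 in the other cells (ratio 2.58) and was close to the tumorigenic level of 0.786. Among the 14 chemokine and cytokine genes compared, 4 were at 0.5 or less, namely Areg, Csf2, Ccl3 and Tnfsf11 (RANKL), and Tnf was at 0.701.

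Among 31 transcription factors of cytotoxic, effector and memory fates, 27 were compared, 2 were at least 2 times higher and 9 at 0.5 or less. The 2 were Hopx and Tbx21, which encodes T-BET, the TH1 and effector regulator (0.736 against 0.234, and 0.701 in tumorigenic cells). Runx3, a driver of the cytotoxic fate, had 3.12 in CTL, 3.14 in tumorigenic cells and 1.77 over the other cells, and Zbtb7b, which encodes the CD4 lineage factor ThPOK, 0.562 against 0.598. Id2, an inhibitor of E proteins, had 20.2 against 10.5. Eomes, a T-box factor of CD8 and NK cells, had 14 UMIs in 8 CTL cells. The 9 lower factors were Nfil3, Klf6, Ikzf2, Irf4, Bhlhe40, Bcl6, Satb1, Lef1 and Tox, of which Klf6 (1.78 against 4.97) reached 23.8 in pre-tumorigenic and Bhlhe40 (1.41 against 3.25) 15.04 in tumorigenic cells.

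The TH17 list moved the other way. Of 15 genes, all compared, 13 were at 0.5 or less and none at 2 or more, with a median log2 ratio of -1.46. Besides the 3 cytokines these included Il23r, a subunit of the IL-23 receptor (0.165 against 0.530), Ccr6 and Il1r1 (0.174 against 0.902). Rora, a nuclear receptor, and Maf, a factor of several helper fates, were the exceptions at ratios of 1.04 and 0.719. The inhibitory receptors were also low against the other cells pooled (4 of 5 lower, median -1.52). Their median was -0.48 with no minimum and -3.12 with a minimum of 1000 UMIs. So were the TFH program (7 of 10 lower, median -1.48) and immediate early and stress genes (11 of 15 lower, median -1.83). Summed over the listed genes, the CTL level was below every other identity for inhibitory receptors (1.55 against at least 2.33). The same held for the TFH program (3.61 against at least 5.03). CTL were not lowest for the TH17 list, at 21.7 within a range of 18.2 to 95.1 in the other identities. Nor were they for early and stress genes, at 34.9 within 33.0 to 439. Pdcd1 (PD-1) had 0.174 against 0.891 and Lag3 0.240 against 0.876, and Fos had 1.25 against 4.46, with 25.6 in pre-tumorigenic cells.

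Genes for presentation on MHC class I were higher by a little and evenly. All 9 compared had ratios between 1.22 (B2m) and 1.87 (H2-Q7), with a median log2 ratio of 0.50 and none at 2 or more, though the H2 genes are alike in sequence and may share reads. Interferon-induced genes had a median of 0.58 over 13 genes, none at 2 or more, from Ifi27l2a at 0.618 to Gbp2 at 1.76. TGFb receptors and responsive genes had a median of -0.045 over 10 genes. Tgfbr2, the gene floxed in these mice, had 1.604 in CTL against 1.46, and reads of transcript 3′ ends do not show whether its floxed part was gone. Within this last list only Tgif1 was at 0.5 or less (0.132 against 0.560).

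**Figure D3:**
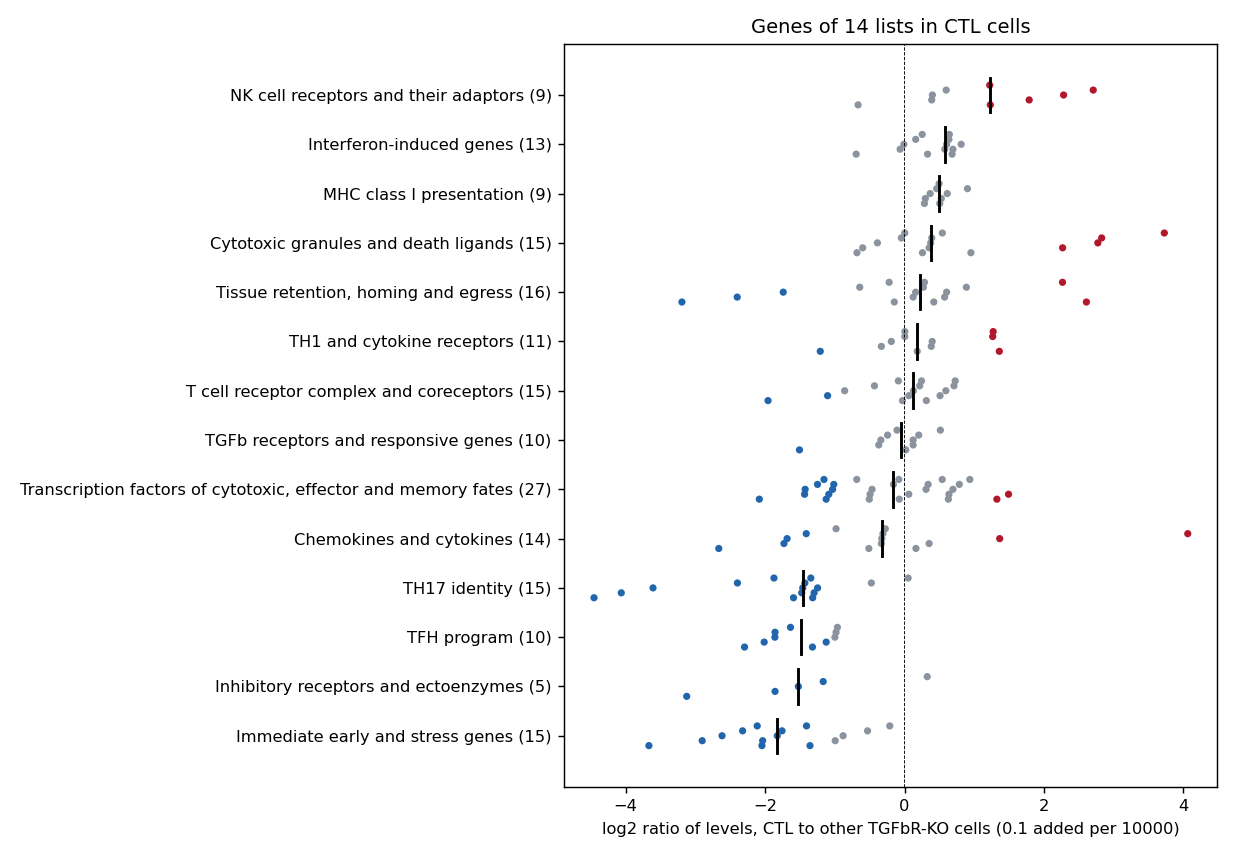
Each point is the log2 ratio of 1 gene between CTL and the other TGFbR-KO cells, grouped by 14 gene lists with the number of genes compared in parentheses, and the black bars are the medians. The medians ran from 1.22 for NK cell receptors (0.37 with no UMI minimum) to -1.83 for immediate early and stress genes, and the granule list (0.38) held 4 genes at a ratio of at least 2 (red) beside 11 that lay between 0.5 and 2 (gray).

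Receptors for cytokines and homing were mixed. Il18rap (2.12 against 0.818) and Il12rb2 (0.479 against 0.141), subunits of the IL-18 and IL-12 receptors, had ratios of 2.41 and 2.40 and with Cxcr3 were the 3 higher of 11 TH1 and cytokine receptor genes, while Il2ra (0.433) was lower. Il12rb2 passed the UMI minimum only with its CTL UMIs. Of 16 homing genes compared, Gpr18 and Jaml were at 2 or more and Cxcr4, Gpr183 and Cd69 at 0.5 or less. Cxcr6, a receptor of tissue T cells, had 8.48 against 5.55, and 13.1 in activated cells. Ccr9, the receptor for the small intestinal chemokine CCL25, had 3.75 against 3.09. Itgae had 0.777 against 0.0574, Cx3cr1 0.628 against 0.0282 and S1pr5 0.422 against 0.0312, with too few UMIs over all TGFbR-KO cells to be compared by the rule.

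The T cell receptor complex was present throughout: Cd3e was detected in 312, Trac in 318 and Cd4 in 225 of the 321 cells, with Cd4 at 4.29 per 10000 against 3.92 in the others. Defining markers of the other T cells and NK cells that an Il17a-cre reporter and a CD4 gate could admit were at or near 0. Cd8b1, Foxp3 and Trdc had 0 UMIs in CTL, Cd8a 8 UMIs in 4 cells, Zbtb16 1 UMI and Klrb1c 10 UMIs, and Tcrg-C1, Tcrg-C2 and Tcrg-C4 were listed at 0 in all TGFbR-KO cells. The summed level of 2 NK and ILC1 markers in the table was 0.198 in CTL within a range of 0.031 to 0.353 in the other identities, that of 3 regulatory T cell markers 0.620 (1.14 to 4.20), of 5 myeloid markers 1.54 (1.65 to 2.46), of 8 epithelial markers 0.372 (0.130 to 0.368) and of 6 B cell and plasma cell markers 1.91 (0.198 to 4.71). The epithelial value came mostly from Fabp2, with 20 UMIs in 13 CTL cells, and the 1 mast cell marker in the table was at 0. The part of these cells in the results was not tested.

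CTL were also set against single identities, of which activated, migratory and tumorigenic cells were compared in full. CTL had 47 genes at 2 or more over activated cells (0.79% of 5953) and 146 at 0.5 or less (2.45%), led by Ccl5 (ratio 53.4), Nkg7 (9.56), Slamf7 (8.34), Gzma (7.06), Ctsw (6.08) and Gpr18 (5.39), with Jchain and Igha from the 1 cell named above. The lowest were Il17a (0.0331 against 1.504), Sdc4, a heparan sulfate proteoglycan (0.0496 against 1.495), Ctla4 (0.347 against 4.50), Lag3 (0.240 against 2.84), Capg, an actin capping protein (0.281 against 3.12), Srgap3 (0.0909 against 1.495), Ppp1r14c (0.0248 against 0.899) and Il17f. Against the migratory stem cell-like cells, 58 genes were at 2 or more (0.974%) and 87 at 0.5 or less (1.46%). There Ccl5 (143), Gzma (24.1), Nkg7 (16.7), Slamf7 (12.3) and Gzmb (11.7) led, with Jchain (14.6) and Igha (10.4) from the same 1 cell among them, followed by the chemokine Ccl4 (9.25), of which 33.6% of CTL UMIs lay in 1 cell. Ccr6 (0.265 against 3.26), Ccr4 (0.0496 against 0.759), Gpr183, Ramp3, the acyl-CoA synthetase Acsbg1 (0.546 against 3.25), Lmo4 (1.12 against 6.09), Pcsk1 and Cysltr1 were lowest.

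The tumorigenic cells, which shared Ccl5, Nkg7, Hopx and Tbx21 with CTL, differed from them in more genes. There were 197 genes at 2 or more (3.31% of 5953) and 245 at 0.5 or less (4.12%). Those higher in CTL were led by Cd7 (4.58 against 0.474, ratio 8.15), Gzma (7.60), Cd160 (2.63 against 0.312, 6.63), Gpr18 (5.73), Jaml (5.45), Atp8a2, a phospholipid flippase (4.98), and Art2b, a surface ADP-ribosyltransferase of T cells (4.68). Those lower in CTL were Il22 (0.248 against 23.6), Nr4a1 (0.0909 against 10.7), Il17a (0.0331 against 6.32), Areg, Tnfaip3 (0.554 against 17.7), Ctla4 (0.347 against 11.1), Il17f and Odc1.

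The promoters of the granzymes and of Nkg7 are shown because each of these genes had its highest level in CTL. The DNA-binding factors Runx3 and Tbx21 had ratios of 1.72 and 2.50 to the other cells, but similar levels in tumorigenic cells. Whether either factor acts on these promoters was not tested. The sequences are the 250 bases before the RefSeq transcription start (GRCm38.p6), read 5′ to 3′ on the strand of the gene, with capitals at matches to TGTGGT, the core letters of the RUNX motif, on either strand.
Gzma (chr13:113100982-113101231, minus strand): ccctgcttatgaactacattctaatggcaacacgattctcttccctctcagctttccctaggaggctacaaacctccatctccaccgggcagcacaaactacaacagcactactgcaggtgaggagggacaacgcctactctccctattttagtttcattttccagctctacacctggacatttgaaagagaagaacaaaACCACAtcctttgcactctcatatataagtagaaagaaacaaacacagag
Gzmb (chr14:56262335-56262584, minus strand): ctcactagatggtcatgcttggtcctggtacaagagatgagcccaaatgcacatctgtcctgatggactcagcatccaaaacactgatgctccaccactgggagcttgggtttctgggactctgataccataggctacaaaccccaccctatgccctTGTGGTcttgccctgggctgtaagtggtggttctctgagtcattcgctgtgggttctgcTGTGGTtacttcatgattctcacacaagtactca
Nkg7 (chr7:43436888-43437137, plus strand): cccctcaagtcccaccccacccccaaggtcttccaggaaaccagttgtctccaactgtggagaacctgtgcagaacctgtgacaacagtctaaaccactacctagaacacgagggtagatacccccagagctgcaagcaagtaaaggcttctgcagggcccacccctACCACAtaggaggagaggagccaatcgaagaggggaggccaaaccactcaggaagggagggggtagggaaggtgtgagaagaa
The Gzma and Nkg7 windows hold 1 match and the Gzmb window 2. Of the 17 genes named for the largest ratios to all or to each of the other cells, 12 had a RefSeq window, 16 windows in all. TGTGGT was found for 7 of the 12 genes (Cd160, Cxcr3, Gpr18, Gzma, Gzmb, Jaml and Nkg7). By window, it was in 8 of the 16 and in 14.05% of all 32851 windows. The longer TGTGGTT, which contains TGTGGT, was in 5 of the 16 windows, of 4 genes (4.396% of all windows). The T-box letters TCACACC were in 2 of the 16, of Cd160 and Nkg7 (3.33%). The AP-1 letters TGACTCA were in 3 (4.46%) and the ETS letters GGAAGT in 3 (19.7%). Some genes have several windows, and a match describes letters and no binding.

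CTL cells differed in their surface genes. Cx3cr1 (fractalkine receptor), found in 30 cells, shared 22 of them with Klrg1 and 15 with S1pr5, the sphingosine-1-phosphate receptor that lets cells leave tissue. Itgae, which encodes CD103 and pairs with Itgb7 to bind E-cadherin of epithelium, was found in 40 cells, and none of these had a UMI of Cx3cr1, S1pr5 or Klrg1. With Itga1, the CD49a integrin that binds collagen, the cells with Itgae or Itga1 numbered 47, and those with Cx3cr1, S1pr5 or Klrg1 numbered 49, with 1 cell in both. These were 14.6% and 15.3% of the 321 CTL cells, and whether the overlap was smaller than such shares would give was not tested. The sets were made after the values of these genes had been seen, genes that define them are no finding, and a cell without a UMI may still express the gene, so 226 cells (70.4%) stayed in neither set.

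The 48 cells with Cx3cr1, S1pr5 or Klrg1 alone had some other genes of circulating effector cells. Klf2, which keeps T cells in circulation, was detected in 41 of 48 (85.4%) and had 17.1 per 10000, against 2 of 46 cells (4.35%) and 0.116 in the Itgae or Itga1 set and 5.09 in the cells of neither set. Zeb2, a regulator of terminal effector cells, had 1.65 against 0 and 0.141, and Klrd1 2.42 against 0 and 0.117. Tbx21 (1.54 against 0.349), Ifng (7.36 against 1.92), Il18rap (3.79 against 0.640), Itgb2 (7.53 against 2.85), Itga4 (7.80 against 2.97), Hopx (7.20 against 1.11), Lgals1 (29.8 against 3.43) and S100a6 (8.79 against 0.640) were also higher than in the Itgae or Itga1 set. S1pr1 was not highest here, at 0.714 against 0.116 in the Itgae or Itga1 set and 0.868 in the cells of neither. Klf2 was also high outside CTL, at 13.5 in tumorigenic and 10.5 in migratory cells.

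The 46 cells with Itgae or Itga1 alone had the highest levels of both granzymes. Gzma was detected in 35 of 46 (76.1%) at 64.3 per 10000, against 17 of 48 (35.4%) at 19.3 in the Cx3cr1 set and 30 of 226 (13.3%) at 2.84 in the cells of neither, so 1106 of the 1700 Gzma UMIs in CTL lay in these 46 cells. Gzmb had 17.6 against 3.85 and 3.88, with 303 of its 704 UMIs in these cells and 331 in the cells of neither. Cd160 (6.40 against 1.37), Cd7 (8.43 against 1.32), Jaml (3.61 against 0.495), Ccr9 (6.80 against 2.25), Rgs1 (6.57 against 1.65) and Runx3 (6.16 against 2.91) were higher than in the Cx3cr1 set as well. Prf1 was similar in these 2 sets, at 0.582 (10 UMIs) in the Itgae or Itga1 set and 0.769 (14 UMIs) in the Cx3cr1 set. Both were above the 0.199 (17 UMIs) of the cells in neither. Ccl5 was the reverse of the granzymes, at 285 in the Cx3cr1 set and 184 in the Itgae or Itga1 set, and both were above the 77.3 of the cells in neither.

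The 226 cells in neither set had their own pattern. Cxcr3 was detected in 150 of them (66.4%), against 7 of 48 in the Cx3cr1 set and 23 of 46 in the Itgae or Itga1 set, and of the 30 cells with Cx3cr1 only 1 had Cxcr3. Il7r, the IL-7 receptor of long-lived T cells, had 8.14 per 10000 against 0.714 and 2.73. Median totals of corrected UMIs were alike, 3697 in the Cx3cr1 set, 3569 in the Itgae or Itga1 set and 3640 in the rest.

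**Figure D4:**
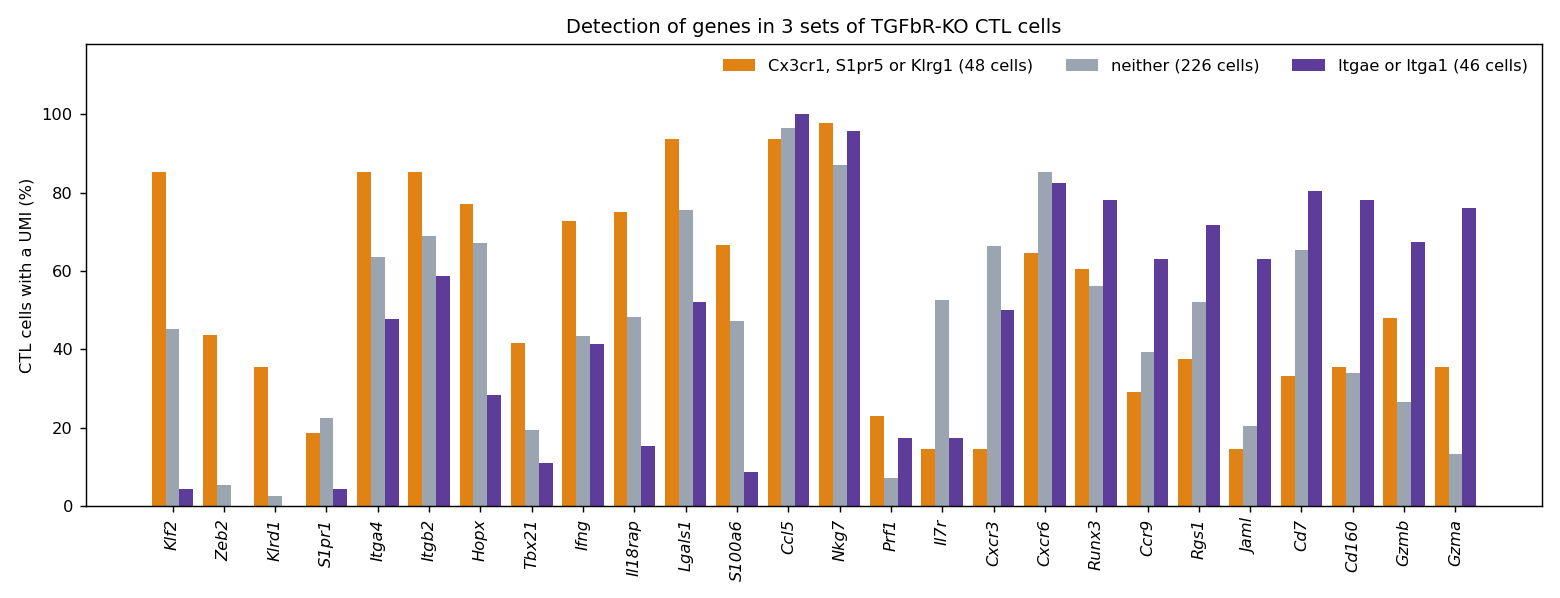
Bars give the share of TGFbR-KO CTL cells (%) with at least 1 UMI of each gene, in the 48 cells with Cx3cr1, S1pr5 or Klrg1 (orange), the 46 with Itgae or Itga1 (purple) and the 226 with neither (gray). Klf2 (85.4% against 4.35%) and Zeb2 stand on the Cx3cr1 side, Gzma (76.1% against 35.4%), Gzmb and Jaml on the Itgae or Itga1 side, and Cxcr3 (66.4%) and Il7r peak in the cells of neither.

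In other identities these surface genes were rare, with an exception. Cx3cr1, S1pr5 or Klrg1 was found in 49 CTL cells (15.3%, 11.5 to 19.7) and in 68 of 361 tumorigenic cells (18.8%, 14.9 to 23.3), but in 5 of 77 cycling cells and at most 2.20% of any other identity. Itgae or Itga1 was found in 47 CTL cells (14.6%, 11.0 to 19.0), 10 tumorigenic cells (2.77%, 1.34 to 5.04) and 12 of 230 pre-tumorigenic cells (5.22%, 2.72 to 8.94). Gzma and Gzmb were detected together in 55 CTL cells, which is 67.1% of the cells with Gzma and 48.2% of those with Gzmb. Over all CTL cells, Gzmb was detected in 35.5% and Gzma in 25.5%. Gzma was seen with Ifng in 36 cells.

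T cell receptor V segments, which name no identity, were counted where a cell had a single segment of the chain. The deposited genes include 19 Trbv and 56 Trav segments, and 80 CTL cells had a Trbv and 83 a Trav segment. Trbv3, Trav8n-2 and Trav2 stood out in CTL and were picked after their values were seen. Trbv3 and Trav2 are shown by their V exon (exon 2 of each gene, GRCm38, plus strand, from the reference transcripts), of which the last 300 of 302 bases are given for Trbv3.
Trbv3 (chr6:41048529-41048828): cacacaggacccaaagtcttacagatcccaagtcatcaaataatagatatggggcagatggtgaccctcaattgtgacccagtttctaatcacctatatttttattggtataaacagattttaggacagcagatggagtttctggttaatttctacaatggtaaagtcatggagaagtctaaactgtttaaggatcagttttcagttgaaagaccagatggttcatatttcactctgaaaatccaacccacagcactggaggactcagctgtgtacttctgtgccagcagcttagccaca
Trav2 (chr14:52567767-52568051): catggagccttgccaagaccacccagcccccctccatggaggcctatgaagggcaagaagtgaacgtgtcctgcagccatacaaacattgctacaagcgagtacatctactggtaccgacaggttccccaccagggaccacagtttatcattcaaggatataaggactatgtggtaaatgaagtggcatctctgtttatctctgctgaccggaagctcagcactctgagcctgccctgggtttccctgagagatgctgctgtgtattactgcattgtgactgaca
Trav8n-2 and Trav8-2, its closest relative in the annotation, differ at 14 of 286 aligned positions (95.1% identity) and Trav8n-2 and Trav8d-2 at 26 (90.9%), so reads could have been split among them. Trav8-2 was found in 1 CTL cell.

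Of 78 CTL cells with a single Trbv segment, 53 had Trbv3 (67.9%, 56.4 to 78.1), against 76 of 597 in the other TGFbR-KO cells (12.7%, 10.2 to 15.7). The other identities lay between 8.64% in tumorigenic and 23.9% in GC-TFH cells, TGFbR-WT cells had 8.90% and TGFbR-CA cells 14.6%. Of 76 CTL cells with a single Trav segment, 37 had Trav8n-2 (48.7%, 37.0 to 60.4) and 14 had Trav2 (18.4%, 10.5 to 29.0), against 43 (7.78%, 5.68 to 10.3) and 8 (1.45%, 0.627 to 2.83) of 553 in the other cells. Trbv3 was thus the most common beta segment of CTL by far, with Trbv2 next in 7 cells, and 2 alpha segments made up 51 of the 76.

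Both chains were seen together in few cells. Of the 54 CTL cells with Trbv3, 17 had any Trav segment, which was Trav8n-2 in 10 and Trav2 in 5. All 10 CTL cells that had Trav8n-2 and any Trbv segment had Trbv3, and 4 cells had Trav8n-2 together with Trav2. The pair of Trbv3 and Trav8n-2 also occurred in 11 cells of other identities, in 4 GC-TFH, 3 TR-TFH, 2 activated, 1 cycling and 1 migratory cell, and in no tumorigenic or pre-tumorigenic cell. Trav8n-2 was listed at 0 in every TGFbR-WT and TGFbR-CA cell, where normalization by set may have left a rare gene out. The table does not hold the junctions, mice were pooled, and whether cells with the same segments came from 1 clone or 1 mouse was not tested.

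The constant regions differed too. Trbc1 and Trbc2, the beta chain constant genes of which a cell uses one or the other, had 24.3 and 14.4 per 10000 in CTL against 14.6 and 26.2 in the other cells. Trbc1 made up 72.2% of the 831 Trbc UMIs in CTL cells with Trbv3 and 44.6% in the 26 with another Trbv segment, against 56.2% in the other identities with Trbv3. Trbv3 was found in 7 cells of the Cx3cr1 set and 10 of the Itgae or Itga1 set, and Trav8n-2 in 6 and 8. Trav2 was found in 5 cells of the Itgae or Itga1 set and in none of the 9 cells of the Cx3cr1 set that had any Trav segment.

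**Figure D5:**
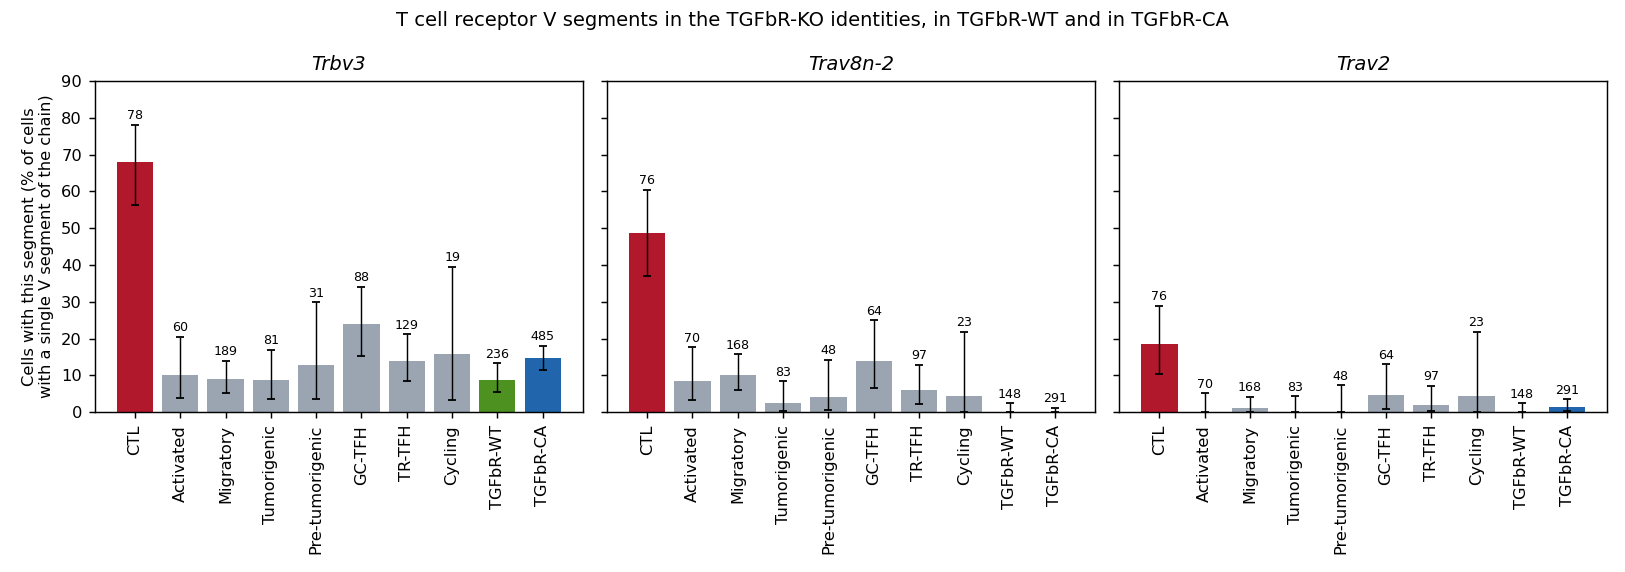
Bars give the share of cells (%) with Trbv3, Trav8n-2 or Trav2 among cells with a single V segment of the same chain, with exact 95% intervals and the number of such cells above each bar, for the 8 TGFbR-KO identities, TGFbR-WT and TGFbR-CA. CTL (red) stands at 67.9%, 48.7% and 18.4%, and the next TGFbR-KO identity is GC-TFH at 23.9%, 14.1% and 4.69%.

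The 16 CTL cells outside TGFbR-KO were too few for more than a list. In the 10 cells of the larger TGFbR-WT set Gzma and Gzmb had 0 UMIs, which allows a share of cells with a UMI of up to 30.0% and sets no limit on cells that express them, while Ccl5 had 138 UMIs in 10 cells, Nkg7 25 in 9, Cd160 7 in 4 and Itgae 7 in 4. The 3 cells of the smaller TGFbR-WT set held 65 UMIs of Gzma in 2 cells, 8 of Gzmb in 2, 135 of Ccl5 in 3 and 10 of Itgae in 3. The 3 TGFbR-CA cells held 3 UMIs each of Gzma and Gzmb in 1 cell, 37 of Ccl5 in 2 and 18 of Nkg7 in 3. Cx3cr1, Il17a and Trbv3 had 0 UMIs in all 16.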

How the data were processed

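YFP+CD4+ T cells of 4 samples were profiled with a 10x Genomics 3′ protocol. Per the labels and the study, the authors ran Cell Ranger 3.1.0 (mm10) and Seurat, kept cells with 1000 to 5000 genes and under 10% mitochondrial reads, normalized with SCTransform, integrated the sets by reciprocal PCA (3000 features) and clustered them (10 dimensions, resolution 0.5). What the authors deposited is, for 13265 genes and 5080 cells, the natural log of the corrected UMI after adding 1. Such values are no raw counts, and count models and counting intervals of levels were not used. The log was undone, and every value lay within 1e-06 of a whole number. Identities and conditions were taken from the table. TGFbR-KO cells bear a prefix that only the study's cell number ties to that sample. TGFbR-WT cells could not be tied to WT1 or WT2 and were split by the suffix of their names, and a gene at 0 in a whole set may have been left out by the normalization.

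UMIs were summed over the cells of a group and given per 10000, with 0.1 added for ratios, for genes with at least 200 UMIs in TGFbR-KO and calls at 2 and 0.5. Shares have exact Clopper-Pearson 95% intervals, which cover counting error only; a count of 0 allows 3 counts of the total. TGFbR-KO and TGFbR-CA had 1 sample each and TGFbR-WT cells could not be tied to their 2, so no test was made. Named genes were the 15 largest and 15 smallest ratios to the other TGFbR-KO cells, the 10 largest of the smallest ratio to 7 identities, the 8 largest and smallest ratios to tumorigenic, activated and migratory cells, and genes of the lists. The members, lists, motifs and the sets by surface genes were chosen with earlier results of these data known. The ratio was tested on simulated data for CTL against the other TGFbR-KO cells: of 200 genes changed among 5953, 174 were called, and no unchanged gene was. The simulated counts were drawn for each cell from 1 pooled profile. They held no genes concentrated in 1 cell and no differences among identities, so they cannot show the number of false calls in these data. Scrublet (in scanpy 1.11.5, Python 3.11.15, seed fixed) called 0 CTL and 4 of the 2975 TGFbR-KO cells as doublets, too few to show that it worked on these corrected values, and no doublets were removed. Alternatives changed the amount added, the UMI minimum, the averaging, the cells and the ratio. Promoters (RefSeq, GRCm38.p6) and V exons (GENCODE vM21, GRCm38, the same assembly as mm10) were copied from the reference. Some genes and sequences are not reported here.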

Additional observations from a re-analysis of the deposited data

How the results depend on the processing

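No paired analysis was possible because TGFbR-KO and TGFbR-CA had 1 sample each, and no sample of TGFbR-KO could be left out. Adding 0.5 in place of 0.1 per 10000 gave 19 higher and 54 lower genes in CTL against the other TGFbR-KO cells, 32 and 147 against tumorigenic, 16 and 53 against activated and 25 and 28 against migratory cells, with medians of 0.61 for NK cell receptors, -0.90 for inhibitory receptors and -0.73 for the TFH program. Adding 0.01 gave 65 higher genes against the other cells, 448 against tumorigenic, 75 against activated and 88 against migratory cells (166 lower), and a TFH median of -2.22. A minimum of 50 UMIs gave 71 higher genes, 18 higher than in each identity, 76 against activated and 101 against migratory cells, and an inhibitory median of -0.86. A minimum of 1000 gave 16 higher and 59 lower genes, 5 higher than in each identity, 52 and 101 against tumorigenic, 17 and 50 against activated and 21 and 36 against migratory cells, a granule median of 1.86 and an inhibitory median of -3.12. With no minimum there were 77 higher genes, 20 higher than in each identity, 83 against activated and 109 against migratory cells, an NK receptor median of 0.37 and an inhibitory median of -0.48. Cells of all conditions gave 76 and 256 genes, and a ratio of 1.5 gave 178 and 354. These changes follow from the amount added, the genes compared or the cells used.

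Igha had a ratio of 0.98 without the 571 TGFbR-KO cells (42 CTL) that held a marker of another cell type, and Igha 0.447 and Jchain 0.301 without the 1 CTL cell, so both fell below 1. With at least 2 UMIs, a setting chosen after seeing the data, the surface gene sets held 31, 27 and 0 (both) cells. Of 360 ratios of named genes under these settings, 313 stayed within 1.5 times of the reported ratio. Averaging over cells and leaving out cells with shared barcodes, cells over 5% mitochondrial UMIs or the few doublet calls (4 TGFbR-KO cells, which says little) moved no count of genes and no list median by more than 1.5 times. Neither did weighting identities equally or leaving out cycling or tumorigenic cells, which were run for the counts against the other TGFbR-KO cells alone. The corrected UMIs hide each cell's own depth, and a gene at under 1 UMI per cell is missed in many cells that express it.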
